A study of Homo sapiens with 18 samples.

Results

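Peaks of the DNA topoisomerases TOP2A and TOP2B were examined on the sequences of the human genome that have no place on an assembled chromosome. These are the contigs named "random", which belong to a known chromosome but have no position on it, and the contigs named "Un", which belong to no known chromosome. Every MACS peak and SISSRs site whose chromosome name was not 1 to 22, X, Y or M was taken, in all libraries. That gave 5843 of 1413022 MACS peaks and 11927 of 1483019 SISSRs sites, on 59 contigs of the build hg19, of which 20 were random and 39 unplaced. No haplotype contig held a peak or site.

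The cells were KG-1, an established human acute myeloid leukaemia line, crosslinked with formaldehyde and precipitated with 1 antibody to TOP2A or 1 to TOP2B. In the etoposide experiment cells received 100 µM etoposide for 1 h or the methanol vehicle for 1 h, with 2 libraries per antibody and treatment. In the mitoxantrone experiment they received 0.5 µM mitoxantrone for 1 h or were left untreated for 1 h, with 1 library per antibody and treatment. The 6 input libraries were not analysed here. The labels do not say that replicates were separate cultures, so p-values measure only the spread between these libraries, which may be technical.

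TOP2A and TOP2B pass one DNA duplex through a break in another and stay covalently bound to the broken ends while they do so. Etoposide and mitoxantrone hold the enzymes in that state. TOP2A is most abundant in dividing cells, while TOP2B is also present in cells that no longer divide. Unplaced contigs often hold repeated or duplicated sequence. chrUn_gl000220 carries copies of the 45S ribosomal DNA, which RNA polymerase I transcribes in the nucleolus into the precursor of the 18S, 5.8S and 28S ribosomal RNAs. These genes lie in tandem arrays with many copies per cell, and TOP2A has been linked to their transcription by RNA polymerase I. The RefSeq gene table at hand lists 5 genes for the 45S precursor, 1 of them (RNA45SN5) on an unplaced sequence, but on another build, so no peak was assigned to a ribosomal gene here.

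List length differed widely between libraries, and the etoposide libraries of replicate 1 stood apart from the others. MACS lists held 36528 and 195016 peaks for TOP2A with etoposide, against 217253 and 249290 with vehicle. For TOP2B they held 70459 and 103633 peaks with etoposide, against 116111 and 297394 with vehicle. In the mitoxantrone experiment the lists held 7607 TOP2A peaks with mitoxantrone against 109739 untreated, and 702 TOP2B peaks with mitoxantrone against 9290 untreated. The sequencing depth is unknown, so numbers of peaks are set against the length of their own list.

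The contigs took up 0.195% of the summed extent of all sequences, each measured to the largest end in any list. They held a larger share of the peaks in each library of the etoposide experiment. With TOP2A the contig share of the MACS list was 0.794% and 0.430% with etoposide (replicates 1 and 2), against 0.496% and 0.384% with vehicle. With TOP2B it was 0.446% and 0.510% with etoposide, against 0.553% and 0.353% with vehicle. The etoposide and vehicle libraries overlapped for both enzymes. Peaks per Mb on the contigs were 4.10 and 2.21 times those on chromosomes in the TOP2A etoposide libraries, against 2.55 and 1.97 times in the TOP2A vehicle libraries. For TOP2B the ratio was 2.29 and 2.63 with etoposide and 2.85 and 1.81 with vehicle.

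Neither drug nor enzyme separated the contig shares of the etoposide experiment. For TOP2A the geometric mean share was 1.34-fold higher with etoposide than with vehicle (log2 ratio 0.42, SD of log2 values 0.63 with etoposide and 0.26 with vehicle, n = 2 each, two-sided exact permutation p = 0.667). Replicate 1 alone gave 1.60-fold and replicate 2 alone 1.12-fold. For TOP2B it was 1.08-fold higher with etoposide (log2 ratio 0.11, SD 0.14 and 0.46, n = 2 each, exact permutation p = 1), at 0.806-fold within replicate 1 and 1.45-fold within replicate 2. TOP2A stood against TOP2B at a log2 ratio of 0.29 with etoposide and -0.016 with vehicle (exact permutation p = 1 for each, n = 2 each). The smallest p that 2 against 2 libraries allow is 0.333, so none of these tests could pass 0.05. Without TOP2A etoposide replicate 1 the TOP2A log2 ratio was -0.021, and without chrUn_gl000220 the TOP2B ratio was -0.016.

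Contig peaks were rare in the mitoxantrone experiment, where each group has 1 library and no test is possible. With TOP2A, 16 of 7607 MACS peaks lay on contigs with mitoxantrone (0.210%, exact Clopper-Pearson 95% interval 0.120% to 0.341%), against 109 of 109739 in untreated cells (0.0993%, interval 0.0816% to 0.120%). With TOP2B, 0 of 702 peaks lay there with mitoxantrone, which allows a share of up to 0.427% by the limit of 3 counts (the exact interval reaches 0.524%), against 19 of 9290 in untreated cells (0.205%, interval 0.123% to 0.319%). These intervals and limits cover counting error only. SISSRs gave the opposite order for TOP2A, with 0.214% of sites on contigs with mitoxantrone (8 sites) against 0.768% in untreated cells (829 sites). For TOP2B it gave 0.286% with mitoxantrone (4 sites) against 4.13% in untreated cells (456 of 11047 sites). The TOP2B untreated library had the highest contig share of sites of all 12 libraries, while its MACS share was below those of the etoposide experiment.

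**Figure D1:**
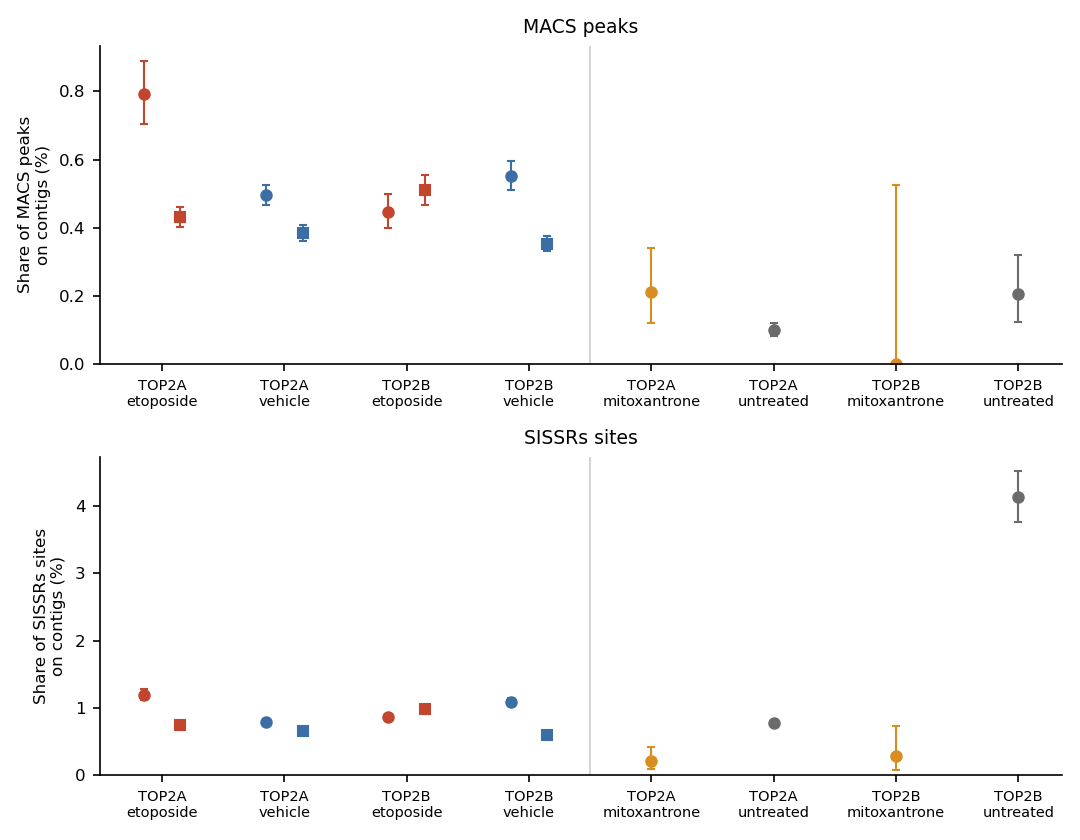
Share of MACS peaks (upper panel) and SISSRs sites (lower panel) that lie on contigs, in percent of each library's list. Circles are replicate 1 and squares replicate 2, bars are exact binomial 95% intervals for counting error, and the grey line parts the etoposide experiment on the left from the mitoxantrone experiment on the right. Etoposide and vehicle libraries overlap for both enzymes, and the TOP2B untreated library reaches 4.13% of SISSRs sites.

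The peaks were spread over many contigs. The 10 contigs with most MACS peaks held 3001 of the 5843 (51.4%), and 29 contigs held a peak in every library of the etoposide experiment. chrUn_gl000225 led with 406 peaks, followed by chrUn_gl000220 with 355, chr7_gl000195_random with 354, chr1_gl000192_random with 343 and chr17_gl000205_random with 290. chrUn_gl000221 held 284, chrUn_gl000214 264, chrUn_gl000216 245, chr4_gl000194_random 233 and chr4_gl000193_random 227. Peak numbers were also set against the extent of each contig, up to the largest end in any list. Over the 8 libraries of the etoposide experiment, chrUn_gl000220 had a mean of 27.3 peaks per 100 kb, chrUn_gl000214 had 23.6 and chr7_gl000195_random 23.9. Shorter contigs with fewer peaks reached similar means, with 24.5 on chrUn_gl000241 and 23.9 on chrUn_gl000239. Without TOP2A etoposide replicate 1 the means of these contigs were 24.3, 26.3, 26.0, 27.7 and 26.9 in the order named. Their order thus rests on that library.

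Contigs were then tested as single features beside all 1 Mb bins of the chromosomes, in peaks per 10000 listed peaks on a log2 scale. limma called 0 contigs at an adjusted p of 0.05 for TOP2A with etoposide against vehicle, of 34 contigs tested, beside 0% of all 2950 features. For TOP2B with etoposide against vehicle it called 0 of 33 contigs, beside 0% of 2947 features. For TOP2A against TOP2B it called 0 of 25 contigs with etoposide (0% of 2934 features) and 0 of 38 with vehicle (0% of 2954 features). At an unadjusted p under 0.05, 2 of the 34 contigs and 3.32% of all features passed for TOP2A with etoposide against vehicle. For TOP2B with etoposide against vehicle it was 1 of 33 contigs and 4.14% of features. Between the enzymes no contig passed, with 5.01% of features with etoposide and 4.74% with vehicle. With 0 to 2 contigs in each comparison, no count stood out from the share over all features.

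Of the 16 fits that leave out 1 library, 11 also called 0 contigs, among them all 4 between the enzymes with vehicle. The other 5 called between 1 and 8. Without TOP2A etoposide replicate 2, limma called 8 of 34 contigs, beside 18.3% of all features. For TOP2B with etoposide against vehicle it called 3 of 34 without etoposide replicate 2 (4.48% of features), 1 of 35 without etoposide replicate 1 (0.169%) and 2 of 33 without vehicle replicate 1 (0.102%). Between the enzymes with etoposide it called 1 of 24 without TOP2B etoposide replicate 2 (0.375%). In these fits a group of 1 library is assumed to vary like the other group.

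The differences went both ways among the 10 leading contigs. For TOP2A with etoposide against vehicle they ran from -0.77 to 1.79 on the log2 scale, with 3 of 10 beyond 0.5 in either direction, and for TOP2B from -0.96 to 1.39, with 5 of 10 beyond 0.5. None passed an adjusted p of 0.05. The median log2 difference over the tested contigs was 0.12 for TOP2A and -0.12 for TOP2B with etoposide against vehicle, beside a median near 0 over all features. chrUn_gl000216 held 17 and 40 MACS peaks in the TOP2A etoposide libraries, against 40 and 35 in the longer vehicle lists (log2 difference 0.95, SE 0.37, limma adjusted p = 0.942). It and chrUn_gl000224 (log2 difference 0.96, SE 0.41, adjusted p = 0.942) were the 2 contigs past the unadjusted threshold for TOP2A. Per 10000 listed peaks, both were higher in each etoposide library than in each vehicle library. chrUn_gl000225 had a log2 difference of 0.43 (SE 0.24, adjusted p = 0.942) for TOP2A and 0.68 (SE 0.32, adjusted p = 0.952) for TOP2B. chrUn_gl000215 was the contig past the unadjusted threshold for TOP2B, at -2.29 (SE 0.96, adjusted p = 0.952). It held 0 and 4 TOP2B peaks with etoposide, against 15 and 16 with vehicle, so it passed the filter of 5 peaks on average only through the vehicle libraries, and the size of its difference depends on the pseudocount of 0.5 peaks.

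**Figure D2:**
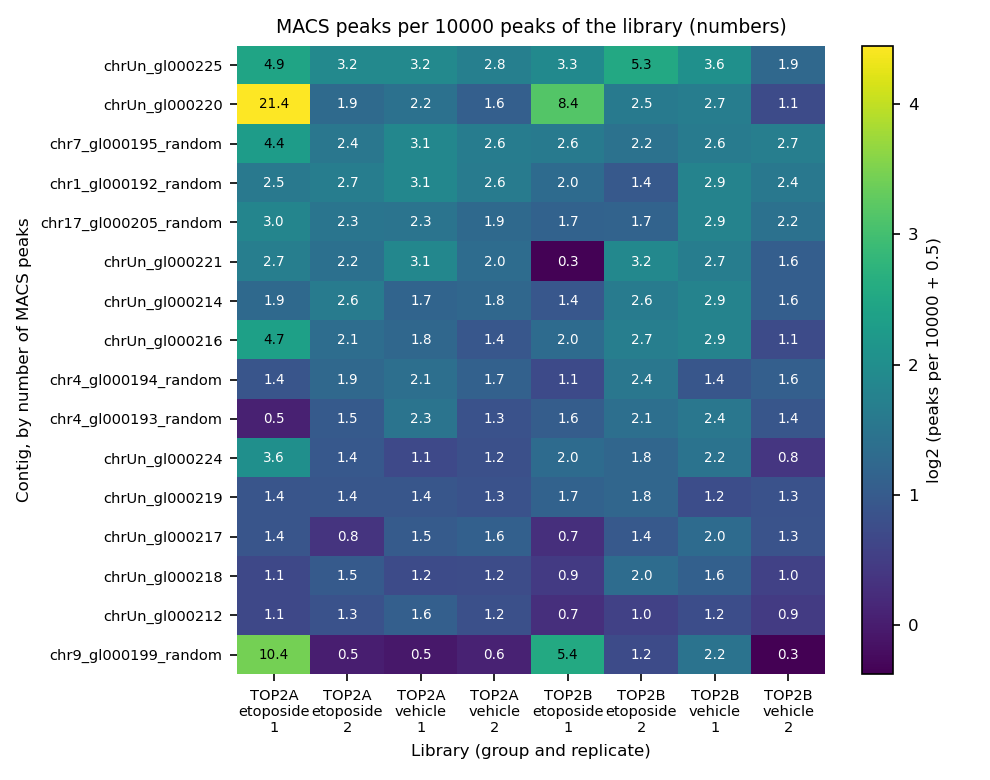
MACS peaks per 10000 peaks of the library (printed numbers) on the 16 contigs with most peaks, rows from most to fewest, in the 8 libraries of the etoposide experiment, with colour on a log2 scale. chrUn_gl000220 and chr9_gl000199_random stand out in both etoposide libraries of replicate 1, at 21.4 and 10.4 for TOP2A and 8.37 and 5.39 for TOP2B.

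chrUn_gl000220, the ribosomal DNA contig, held 78 and 38 MACS peaks in the TOP2A etoposide libraries (replicates 1 and 2), against 47 and 40 with vehicle. For TOP2B it held 59 and 26 with etoposide, against 31 and 34 with vehicle. The replicate 1 etoposide libraries were thus the highest in number although their lists were the shortest of their enzyme in this experiment. In the mitoxantrone experiment it held 0 peaks with mitoxantrone for both enzymes, against 2 TOP2A peaks and 0 TOP2B peaks in untreated cells.

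As a share of all contig peaks, chrUn_gl000220 took 26.9% and 4.53% for TOP2A with etoposide, against 4.36% and 4.18% with vehicle. For TOP2B it took 18.8% and 4.91% with etoposide, against 4.83% and 3.24% with vehicle. The etoposide libraries of replicate 2 were close to the vehicle libraries. Its share of the whole list was 3.46-fold higher with etoposide than with vehicle for TOP2A (log2 ratio 1.79, SD 2.44 with etoposide and 0.30 with vehicle, n = 2 each, exact permutation p = 0.667). Replicate 1 gave 9.83-fold and replicate 2 gave 1.22-fold. For TOP2B it was 2.62-fold higher with etoposide (log2 ratio 1.39, SD 1.22 and 0.87, n = 2 each, exact permutation p = 0.667), with log2 ratios of 1.64 within replicate 1 and 1.14 within replicate 2. In the limma fit the SE was 1.63 for TOP2A (adjusted p = 0.942) and 0.89 for TOP2B (adjusted p = 0.961). Without etoposide replicate 1 the log2 ratio was 0.067 for TOP2A and 0.53 for TOP2B. In SISSRs sites, with all libraries, it was 0.51 for both enzymes (exact permutation p = 0.667 for TOP2A and 1 for TOP2B, n = 2 each).

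Peaks were not spread evenly along the contig. Base 100000 was taken as a boundary after the values had been seen, which gives a proximal segment before it and a distal segment of 61.7 kb from it to the last peak. In TOP2A etoposide replicate 1, 72 MACS peaks were distal and 6 proximal, while in replicate 2 it was 4 and 34. In the TOP2A vehicle libraries it was 9 distal and 38 proximal in replicate 1, and 0 and 40 in replicate 2. The excess in etoposide replicate 1 lay in the distal segment. Its proximal number was the lowest of the 4, but so was the length of its list.

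For TOP2B the distal number was also highest in etoposide replicate 1, but the excess was not confined to that replicate. With etoposide, 44 peaks were distal and 15 proximal in replicate 1, and 12 and 14 in replicate 2. With vehicle, 9 were distal and 22 proximal in replicate 1, and 1 and 33 in replicate 2. Both TOP2B etoposide libraries had more distal peaks than both vehicle libraries. On the proximal segment alone the log2 ratio of shares was 0.064 for TOP2A and 0.25 for TOP2B, and on the distal segment 4.51 and 3.76 (exact permutation p = 0.667 and 0.333). The distal ratios lean on libraries with 0 and 1 peaks and on a pseudocount of 0.5 peaks, so their size is not a measured fold. Their p-values decide nothing, since the boundary was set with these peaks in view. An exact permutation p of 0.333 is also the smallest that 2 against 2 libraries allow.

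SISSRs placed sites on the distal segment in every library of the etoposide experiment. It placed 98 and 120 sites there for TOP2A with etoposide, against 173 and 115 with vehicle. For TOP2B it placed 121 and 104 with etoposide, against 144 and 106 with vehicle. As a share of the site list this was 0.149% and 0.0617% for TOP2A with etoposide against 0.0795% and 0.0466% with vehicle, and 0.105% and 0.0980% for TOP2B with etoposide against 0.120% and 0.0361% with vehicle. Etoposide and vehicle libraries overlapped for both enzymes in numbers and in shares. TOP2B vehicle replicate 1 was the only one of the 12 lists with sites of a fold below 1. It had 1120 of them, 223 among its 1307 contig sites and 47 among its 144 distal sites, and 97 distal sites remained without them. Of all sites on chrUn_gl000220, between 70.1% and 89.9% were distal in these 8 libraries. In untreated cells of the mitoxantrone experiment, 9 of 68 TOP2A sites and 12 of 62 TOP2B sites were distal, so there most sites lay on the proximal segment.

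**Figure D3:**
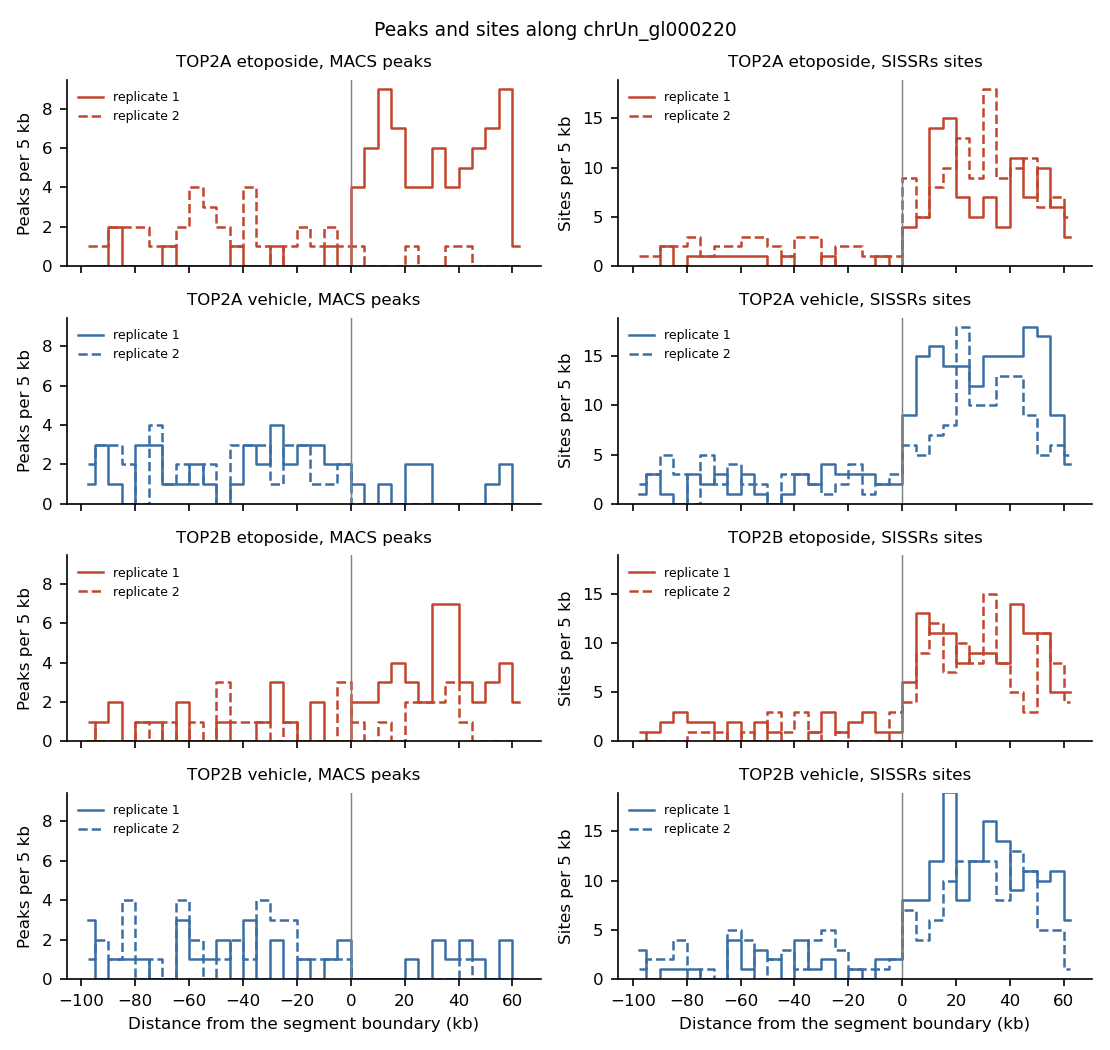
MACS peaks (left) and SISSRs sites (right) per 5 kb along chrUn_gl000220 in the 4 groups of the etoposide experiment, against the distance in kb from the segment boundary (grey line), with replicate 1 solid and replicate 2 dashed. SISSRs sites rise beyond the boundary in all 8 libraries, and MACS peaks do so mainly in the etoposide libraries of replicate 1.

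MACS peaks covered these sites to very different extents. Of the distal sites, 89.8% and 18.3% overlapped a MACS peak of the same library for TOP2A with etoposide, against 28.3% and 0% with vehicle. The TOP2B values were 87.6% and 23.1% with etoposide, against 20.8% and 11.3% with vehicle. On chromosomes, 55.2% and 61.4% of sites overlapped a MACS peak in the etoposide libraries of replicate 1, and 93.2% to 97.95% in the other 6 libraries. The 2 lists thus parted on the distal segment in 6 libraries, and on the chromosomes in the other 2.

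Distal sites held many sequence tags but little enrichment. Their median was 82.0 and 253 tags per site for TOP2A with etoposide, against 800 and 214 with vehicle, where the medians over all sites were 30.0, 70.0, 182 and 42.0. For TOP2B it was 101 and 94.0 tags with etoposide, against 184 and 259 with vehicle, where all sites had 44, 38, 82 and 46. In all 8 libraries the distal median was above that of the list.

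The fold over background that SISSRs gives went the other way. The median fold of distal sites was 2.40 and 1.78 for TOP2A with etoposide, against 1.82 and 1.55 with vehicle. TOP2B sites had 2.10 and 1.54 with etoposide, against 1.33 and 1.43 with vehicle. For chromosome sites the medians lay between 58.3 and 141, so the 2 measures rank the same sites at opposite ends. Proximal sites resembled the chromosomes more, with median folds of 17.5 and 76.0 for TOP2A with etoposide against 72.1 and 72.5 with vehicle, and of 45.5 and 32.5 for TOP2B with etoposide against 96.2 and 61.1 with vehicle.

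The part of the tags that fell to the distal segment varied between replicates, except for TOP2B with etoposide. Its sites held 0.296% and 0.210% of all tags in sites for TOP2A with etoposide, against 0.323% and 0.208% with vehicle. For TOP2B they held 0.235% and 0.236% with etoposide, against 0.257% and 0.175% with vehicle. These values overlap between etoposide and vehicle for both enzymes. Such sums move with how much was called. The sites covered 17.1 and 20.9 kb with 105 and 285 tags per site on average for TOP2A with etoposide, against 23.7 and 19.2 kb and 905 and 231 tags with vehicle. For TOP2B they covered 25.6 and 18.5 kb with 122 and 106 tags per site with etoposide, against 29.7 and 22.1 kb and 205 and 264 tags with vehicle.

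**Figure D4:**
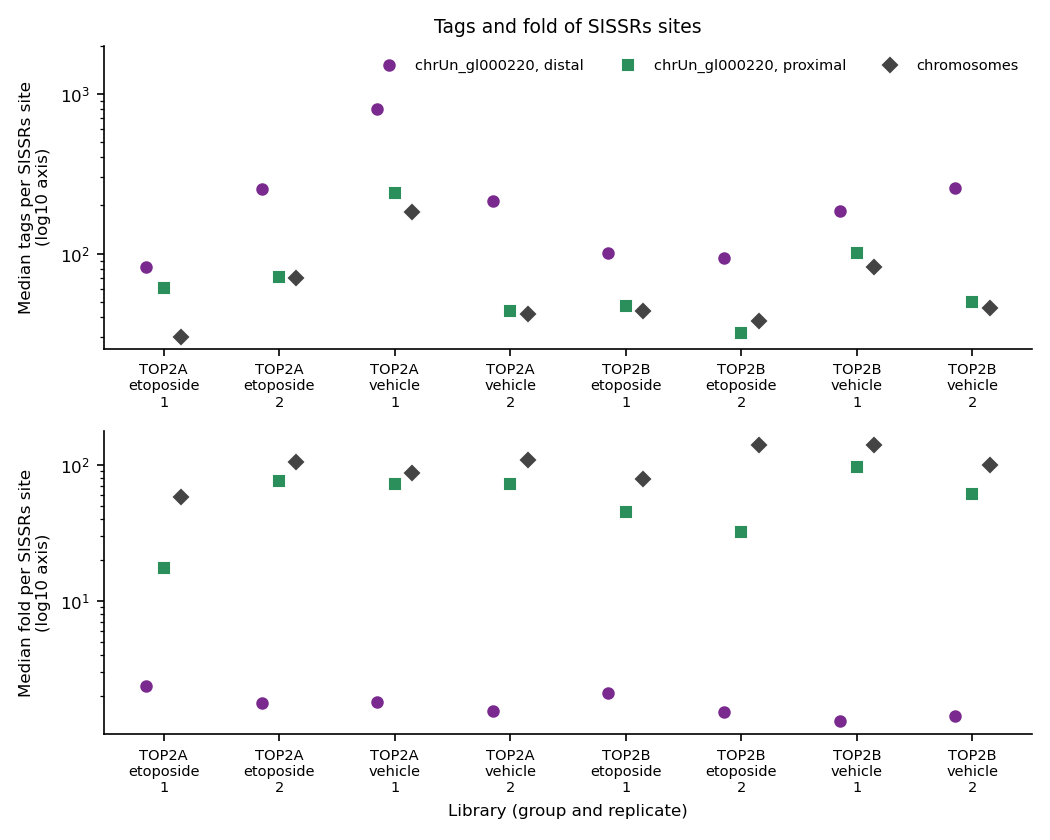
Median tags (upper panel) and median fold (lower panel) per SISSRs site on log10 axes, for the distal and proximal segments of chrUn_gl000220 and for the chromosomes, in the 8 libraries of the etoposide experiment. Distal sites lie above the chromosomes in tags in all 8 libraries and near 2 in fold, against 58.3 to 141 on chromosomes.

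Some of the widest peaks of these lists lay on the distal segment. In TOP2A etoposide replicate 2 the widest peak of all 195016 lay at bases 120501 to 126782 (6282 bp). In TOP2A vehicle replicate 1 the widest of all lay at bases 148251 to 152562 (4312 bp), and in TOP2B vehicle replicate 2 at bases 141179 to 145120 (3942 bp). In TOP2B etoposide replicate 2 it lay at bases 138429 to 140022 (1594 bp). The contig therefore held the widest peak of the list in 4 of 8 libraries, at a different place each time. The authors' scores of the first 3 ranked low within their lists, at percentiles of 3.20, 2.35 and 14.9.

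In TOP2B etoposide replicate 1 the wide peaks also scored high. A peak at bases 104299 to 108673 had a score of 1062.08 (percentile 99.96) and one at bases 148271 to 152696 a score of 1037.08 (percentile 99.96). Their starts lie 43972 bases apart and their widths are 4375 and 4426 bp. Distances of 43800 to 44000 bases between distal MACS peaks of one library occurred 25 times over the 8 libraries, against a median of 7 (range 3 to 11) in the 20 neighbouring classes of 200 bases. Of the 25 pairs, 17 came from TOP2A etoposide replicate 1 and 7 from TOP2B etoposide replicate 1. Among distal SISSRs sites the class held 134 pairs, against a median of 100 (range 77 to 127) in its neighbours. This distance was chosen after its values were seen and has no test.

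Merged over the 12 MACS lists, chrUn_gl000220 held 183 regions, of which 21 had peaks in at least 3 libraries, 10 of them distal and 11 proximal. Merging joins chains of overlapping peaks, so the libraries of a region need not all share a base, least of all where peaks are wide. The most shared region was bases 120277 to 130024, with 23 peaks from 6 libraries, 4 with etoposide and 2 with vehicle. Next came bases 138211 to 145695, with 19 peaks from 6 libraries (4 with etoposide and 2 with vehicle), and bases 132695 to 136811, with 18 peaks from 5 libraries (4 with etoposide and 1 with vehicle). Several proximal regions had more vehicle than etoposide libraries. Bases 459 to 2446 had peaks in 5 libraries, 1 with etoposide, 3 with vehicle and 1 untreated, and bases 15661 to 17176 in 4 libraries, 0 with etoposide, 3 with vehicle and 1 untreated. Bases 10810 to 11452 and 35386 to 35645 each had 1 etoposide and 3 vehicle libraries.

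The remaining shared regions had fewer libraries. Bases 77651 to 77894 had 2 etoposide and 2 vehicle libraries, as had the distal bases 156088 to 157829. The other distal regions were bases 148251 to 152696, 112125 to 113883, 157964 to 161083 and 154209 to 155939, each with 2 etoposide libraries and 1 vehicle library, and bases 131175 to 132121 and 113996 to 115027, each with 3 etoposide libraries and none with vehicle. The other proximal regions had 3 libraries each. Bases 84861 to 85064, 95774 to 96104, 25164 to 25372 and 64548 to 64843 had 1 etoposide and 2 vehicle libraries, while bases 21894 to 22260 and 90611 to 90796 had 2 etoposide libraries and 1 vehicle library. Longer lists have more chances to share a region, and the lists differ in length between the groups.

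The etoposide libraries of replicate 1 also had the highest numbers of peaks on 2 other contigs, which were picked after their values were seen. chr9_gl000199_random held 38 and 10 MACS peaks for TOP2A with etoposide (replicates 1 and 2), against 10 and 14 with vehicle. For TOP2B it held 38 and 12 with etoposide, against 26 and 8 with vehicle. Its SISSRs sites numbered 115 and 109 for TOP2A with etoposide against 122 and 133 with vehicle, and 93 and 117 for TOP2B with etoposide against 155 and 128 with vehicle. As a share of the site list this was 0.175% and 0.0560% for TOP2A with etoposide against 0.0561% and 0.0539% with vehicle, so TOP2A etoposide replicate 1 was also the highest in sites. For TOP2B it was 0.0811% and 0.110% with etoposide against 0.129% and 0.0436% with vehicle, where replicate 1 with etoposide did not stand above the others. As a limma feature its log2 difference with etoposide against vehicle was 2.17 for TOP2A (SE 1.94, adjusted p = 0.942) and 1.67 for TOP2B (SE 1.63, adjusted p = 0.974).

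chrUn_gl000226 gave 6 MACS peaks in TOP2A etoposide replicate 1, 1 in TOP2B etoposide replicate 1 and none in the other 10 libraries. The TOP2A peak at bases 4737 to 11494 (6758 bp) and the TOP2B peak at bases 7 to 12893 (12887 bp) were the widest of their lists. Their score of 3100 was the highest of their lists, tied with other peaks there (percentiles 99.992 and 99.995). The same score ranked only 1745 in TOP2A etoposide replicate 2. SISSRs placed 395 sites there over the 8 libraries of the etoposide experiment, at least 22 in each. Their median tags per site were 377 and 849 for TOP2A with etoposide against 2341 and 442.5 with vehicle, and 390 and 241 for TOP2B with etoposide against 487 and 591 with vehicle. Their median fold lay between 1.08 and 1.29, and all of them had a fold under 5. In the mitoxantrone experiment no library had a site there. The median tags per site were thus above those of the whole list in all 8 libraries of the etoposide experiment, including the 6 where MACS called no peak.

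Low fold was common over the contigs as a whole. Of contig SISSRs sites, 63.8% and 45.1% had a fold under 5 for TOP2A with etoposide, against 42.4% and 44.4% with vehicle. The TOP2B shares were 51.7% and 53.2% with etoposide, against 55.6% and 45.1% with vehicle. On chromosomes the share was 4.57% to 8.18% in these 8 libraries. Contigs differed among themselves. chrUn_gl000216 had 75.1% to 92.3% of its sites under a fold of 5 and chr9_gl000199_random 89.5% to 96.5%, while chr7_gl000195_random had 10.1% to 25.0%. Sites per MACS peak over the 8 libraries were 6.23 on chr9_gl000199_random, 4.64 on chrUn_gl000216, 3.49 on chrUn_gl000220 and 2.62 on chrUn_gl000225, against 1.09 on chr7_gl000195_random and 1.01 on chr1_gl000192_random.

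Contig peaks recurred between libraries more often than chromosome peaks. Merging all 12 MACS lists gave 4434 contig regions, of which 3575 (80.6%) came from 1 library, against 91.7% on chromosomes. Regions with peaks in at least 3 libraries made up 5.44% on contigs (241 regions) and 5.18% without chrUn_gl000220, against 0.924% on chromosomes. At least 5 libraries shared 33 contig regions (0.744%), against 0.0309% on chromosomes. Contigs also have more peaks per Mb, and in the etoposide experiment fewer of their peaks have the smallest width of the list. Merging joins chains of overlapping peaks, so the libraries of a region need not all share a base. The parts of density, width and chaining in the recurrence were not tested.

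No region had peaks in more than 8 libraries, and 4 had 8. On chr7_gl000195_random the region at bases 36322 to 39435 had peaks in 3 etoposide, 3 vehicle and both untreated libraries. The regions at bases 2207 to 4499 of chrUn_gl000224, 45613 to 46988 of chrUn_gl000225 and 132250 to 133829 of chrUn_gl000214 had peaks in all 8 libraries of the etoposide experiment and in none of the other. The mean score percentile within the lists was 59.1 for the chr7_gl000195_random region, and 42.7, 25.0 and 18.4 for the other 3. Of the 6 regions with 7 libraries, bases 40359 to 41348 of chrUn_gl000212 had the highest mean percentile, 70.1.

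That chrUn_gl000212 region held the contig peak with the highest score in 2 libraries of the mitoxantrone experiment. With TOP2A and mitoxantrone its score of 175.31 ranked 6 of 7607 peaks, and with TOP2B in untreated cells its score of 274.01 ranked 14 of 9290. It also had a peak in TOP2A untreated cells, in TOP2A etoposide replicate 1 and vehicle replicate 1, and in both TOP2B etoposide libraries. The other regions with 7 libraries were bases 25502 to 29105 of chrUn_gl000241, 162766 to 164910 of chr17_gl000205_random, 185441 to 187628 of chrUn_gl000225, 51331 to 55560 of chr7_gl000195_random and 89431 to 92314 of chr19_gl000208_random. Of these, the regions of chrUn_gl000241, chrUn_gl000225 and chr7_gl000195_random had a peak in TOP2A mitoxantrone cells too.

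At an overlap of at least 1 bp, replicates shared a larger part of their contig peaks than of their chromosome peaks. For TOP2A, 20 of 290 contig peaks (6.90%) of the shorter list overlapped the other replicate with etoposide, against 91 of 958 (9.50%) with vehicle. On chromosomes it was 2.22% with etoposide and 2.91% with vehicle. For TOP2B, 42 of 314 contig peaks (13.4%) overlapped with etoposide, against 55 of 642 (8.57%) with vehicle, and on chromosomes 1.07% with etoposide and 3.44% with vehicle. Without chrUn_gl000220 the contig values were 5.66% and 9.15% for TOP2A and 11.4% and 8.18% for TOP2B with etoposide and vehicle. With a reciprocal overlap of at least 50%, contig values lay between 1.38% and 4.78%, against 0.498% to 1.41% on chromosomes. Without chrUn_gl000220 the TOP2A etoposide value was then 0.943% (2 of 212 peaks), against 0.955% on chromosomes. The other groups stayed higher on contigs, at 2.61% (TOP2A vehicle), 4.71% (TOP2B etoposide) and 2.29% (TOP2B vehicle), against 1.08%, 0.498% and 1.41%. Contigs also have more peaks per Mb, and the part of this density in the overlap was not tested.

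The enzymes shared contig peaks most in the etoposide libraries of replicate 1. There 99 of 290 contig peaks (34.1%) of the shorter list overlapped between TOP2A and TOP2B, against 1.84% on chromosomes. In etoposide replicate 2 the contig value was 9.07%, and in the vehicle libraries 10.4% and 11.6%, against 2.72% to 3.99% on chromosomes. On chrUn_gl000220 alone, 59 of the 78 TOP2A peaks (75.6%) overlapped a TOP2B peak in etoposide replicate 1, and 32 of the 59 TOP2B peaks (54.2%) a TOP2A peak. In peaks of the library with fewer contig peaks, the share on this contig was 15.4% in etoposide replicate 2, and 12.9% and 15.0% in the vehicle libraries. Without that contig, 40 of 212 TOP2A peaks (18.9%) overlapped in etoposide replicate 1. In that replicate, distal TOP2B peaks spanned 42387 bases of the 61.7 kb distal segment, where 72 of the 78 TOP2A peaks lay. On chrUn_gl000226 a single TOP2B peak spanned bases 7 to 12893, where TOP2A also had peaks. Wide coverage alone can give such overlaps, and its part in them was not tested. In untreated cells 3 of 19 contig peaks (15.8%) overlapped, against 8.03% on chromosomes.

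Contig peaks scored lower than chromosome peaks of the same list. The median percentile of their score within the list was 38.3 and 24.1 for TOP2A with etoposide, against 19.1 and 21.3 with vehicle. For TOP2B it was 45.9 and 19.9 with etoposide, against 21.4 and 17.4 with vehicle, while chromosome peaks had medians of 45.9 to 50.8. The difference between contigs and chromosomes averaged -23.4 percentile points (SD 12.02, n = 8 libraries, lower in 7 of 8 and level in TOP2B etoposide replicate 1, two-sided exact permutation p = 0.0156 over sign changes). Without chrUn_gl000220 it was -25.5 points (SD 8.71, lower in 8 of 8, exact permutation p = 0.00781). The level value of TOP2B etoposide replicate 1 comes from ties, since both medians fell on the same score of 84.51. In that library 36.0% of contig peaks scored above the list median, against 44.2% of chromosome peaks. The 8 libraries are not independent, since all were scored on the same contigs. The labels do not say whether the TOP2A and TOP2B libraries of one treatment and replicate number share a culture. These p-values may therefore be too small. In TOP2B untreated cells contig peaks had a median percentile of 75.4, from 19 peaks.

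Contig peaks were also less often of the smallest width that their list holds. That width made up 28.3% and 61.4% of contig peaks for TOP2A with etoposide, against 58.3% and 54.8% with vehicle. On chromosomes the same shares were 57.9% and 76.5% with etoposide, against 71.1% and 69.9% with vehicle. For TOP2B the contig shares were 33.8% and 62.2% with etoposide, against 65.4% and 65.7% with vehicle, and the chromosome shares 58.7% and 78.2%, against 79.5% and 81.0%. The contig share was the lower one in all 8 libraries. Among the 20 widest peaks of each list, 3 and 5 lay on contigs for TOP2A with etoposide against 5 and 4 with vehicle, and 4 and 7 for TOP2B with etoposide against 10 and 2 with vehicle. Counting only peaks of the smallest width, the score difference was -22.9 percentile points (SD 9.70, n = 8, lower in 7 of 8, exact permutation p = 0.0156). TOP2B etoposide replicate 1 was again level, with both medians at the same percentile.

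**Figure D5:**
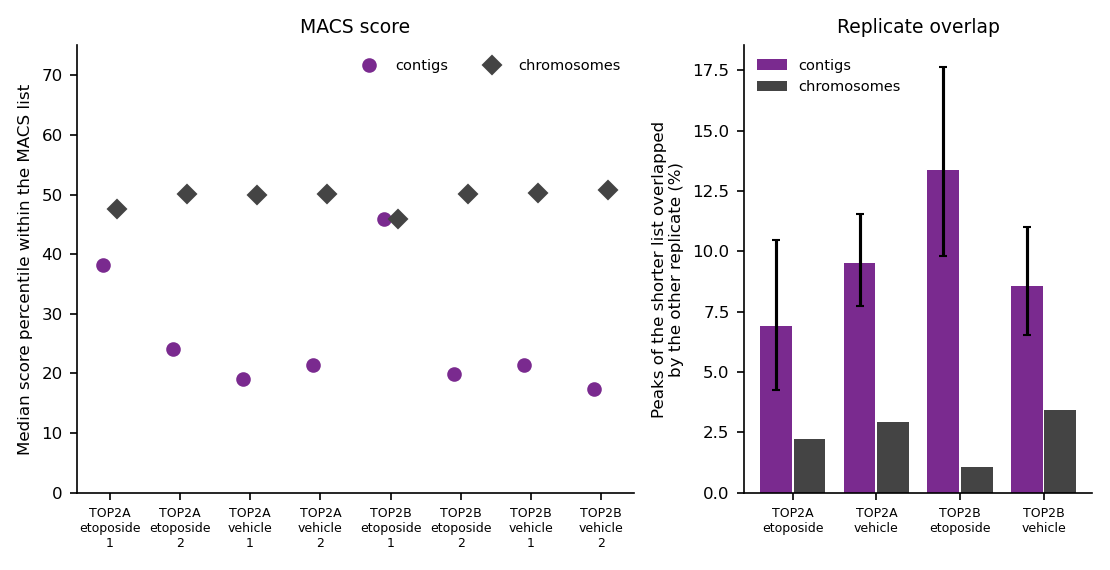
Left, median percentile of the MACS score within its list for contig and chromosome peaks in the 8 libraries of the etoposide experiment. Right, share of the shorter replicate's peaks that overlap the other replicate by at least 1 bp, with exact binomial 95% intervals for the contigs. Contig medians lie below those of the chromosomes in 7 of 8 libraries, and contig overlaps lie between 6.90% and 13.4%.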

How the data were processed

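Immunoprecipitated DNA of KG-1 cells was sequenced as paired 50 bp reads, per the labels' protocols. The build hg19 and the tools MACS 1.4, Bowtie2 2.2.5 and bedtools 2.26.0 are listed in the submitters' processing notes. The authors deposited, per library, a MACS list with a score per peak (lowest 50) and a SISSRs list. The deposited SISSRs columns were read from their values, for want of a header, as a count of tags, a fold (ratio) over background and a p-value. Peaks were called per library. Caller settings, the use of input, the placing of reads that match several sequences and the number of reads are not given in the sources, so the depth is unknown.

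Members and lists were chosen with earlier results of these data known. Contig shares were compared as log2 values, with a pseudocount of 0.5 peaks for chrUn_gl000220, by a two-sided exact permutation test. Contigs and 1 Mb bins of chromosomes 1 to 22, X and Y that averaged 5 or more peaks were fitted in R 4.3.3 with limma 3.58.1 (robust, with a trend), with Benjamini-Hochberg adjustment over all features. The fit was also run on simulated counts. Their spread was set by hand and not taken from these libraries, so the run does not give the power of the real comparisons. Contig and chromosome extents are the largest end in any list. Overlap needs 1 bp. A score was used only to rank peaks within its list. Named were the 10 contigs with most MACS peaks, chrUn_gl000220, the 10 merged regions with most libraries (ties by mean score percentile) and each region of chrUn_gl000220 with at least 3 libraries. Contigs named beyond these, the segment boundary and the distance of 43800 to 44000 bases were chosen after their values were seen. Alternatives were SISSRs sites, a score of at least 100, bases covered, a reciprocal overlap of 50%, a pseudocount of 2, no filter, 1 fit of 8 libraries, the replicate number as a block and each library left out. Tables and figures were made in Python 3.11.15 with pandas 2.3.3, numpy 2.4.6, matplotlib 3.10.9 and scipy 1.17.1.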

Additional observations from a re-analysis of the deposited data

How the results depend on the processing

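Of 148 alternative values, 102 were kept, 21 moved, 20 reversed and 5 passed a threshold that the reported value did not. Kept meant the same direction and side of the threshold, or for overlaps a value inside the reported interval. For shares of the etoposide experiment it meant only the same sign, since their exact permutation p cannot fall below 0.333. The chrUn_gl000220 ratio for TOP2A with etoposide against vehicle was thus kept at 0.067 without etoposide replicate 1, beside 1.79 reported. Share values with a replicate block or without haplotype contigs equal the reported ones by construction, yet count as kept. Moved values of the mitoxantrone experiment kept their direction. The tally is therefore no measure of robustness. Where a value reversed or moved, the cause was not tested. The TOP2B contig share with etoposide against vehicle (log2 ratio 0.11) was -0.027 at a score of at least 100, -0.016 without chrUn_gl000220 and -0.11 without it and chr9_gl000199_random (the last setting chosen after seeing the data). TOP2A against TOP2B with etoposide was -0.020 in bases covered. For chrUn_gl000220 with etoposide against vehicle, SISSRs sites gave 0.51 for both enzymes, against 1.79 (TOP2A) and 1.39 (TOP2B) in MACS peaks. TOP2A against TOP2B on this contig was -0.073 with etoposide and -0.073 with vehicle in SISSRs sites, -0.35 and -0.27 in bases covered, and -0.018 with vehicle at a score of at least 100.

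Leaving out each library gave contig share ratios of -0.021 to 0.86 (TOP2A, etoposide against vehicle), -0.21 to 0.44 (TOP2B, etoposide against vehicle), -0.15 to 0.74 (TOP2A against TOP2B with etoposide) and -0.34 to 0.31 (with vehicle). For chrUn_gl000220 the ranges were 0.067 to 3.51, 0.53 to 2.25, -1.24 to 2.21 and -0.53 to 0.70. The number of contigs called by limma ranged from 0 to 8 for TOP2A with etoposide against vehicle, with 8 without etoposide replicate 2. It ranged from 0 to 3 for TOP2B with etoposide against vehicle (1 without etoposide replicate 1, 3 without etoposide replicate 2, 2 without vehicle replicate 1), from 0 to 1 between enzymes with etoposide (1 without TOP2B etoposide replicate 2) and was 0 with vehicle. The 8 stood beside 541 of 2949 features, and such fits assume that the lone library varies like the others. chrUn_gl000220 was among the called contigs without TOP2A etoposide replicate 2, without TOP2B etoposide replicate 2 and without TOP2B vehicle replicate 1.

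In the mitoxantrone experiment the difference in contig share, in percentage points, was 0.11 for TOP2A with mitoxantrone against untreated, and -0.55 in SISSRs sites, 1.61 at a score of at least 100 and 0.39 in bases covered. For TOP2B with mitoxantrone against untreated it was -0.20, and -3.84, -2.19 and -0.52. TOP2A against TOP2B was 0.21 with mitoxantrone, and -0.072 in SISSRs sites (0.214% and 0.286%), 1.67 at a score of at least 100 and 0.55 in bases covered. In untreated cells it was -0.11, and -3.36, -2.13 and -0.36.

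Replicate overlap on contigs with SISSRs sites of 200 bp was 32.1% (TOP2A etoposide), 27.7% (TOP2A vehicle), 26.4% (TOP2B etoposide) and 37.2% (TOP2B vehicle). On chromosomes such sites gave 4.30%, 4.25%, 2.65% and 5.35% in this order. With a reciprocal overlap of at least 50% the contig values for MACS peaks were 1.38%, 2.92%, 4.78% and 2.34%. Contig peaks that scored 100 or more gave 5.14% (TOP2A etoposide), 7.60% (TOP2A vehicle), 9.71% (TOP2B etoposide) and 6.00% (TOP2B vehicle). Chromosome peaks with such scores gave 2.07%, 2.67%, 1.01% and 3.25%. Without chrUn_gl000220 these contig values were 2.5%, 7.27%, 7.04% and 5.41%. The TOP2A etoposide value (3 of 120 peaks) was then close to that of the chromosomes.

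With the replicate number as a block the mean ratios are the same by construction, for example 0.42 (TOP2A) and 0.11 (TOP2B) for contig shares with etoposide against vehicle (exact permutation p = 0.5 and 1), and limma called 0 contigs in each of the 4 comparisons. Equal numbers are not stated to mark a shared batch. Leaving out haplotype contigs changed nothing, since none held a peak. Read totals are unknown, so no limit of detection in reads can be given.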
